A study of Drosophila melanogaster with 20 samples.

Results

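Flies sprayed with a pepper extract plus pyrethrin were set against flies sprayed with the pepper extract alone, each measured relative to flies sprayed with the ethanol carrier. The members are the arrays of the treatments that were hybridised with the dyes exchanged: 16 of the 20 arrays of the series, 8 per treatment, made from 8 treated RNA extracts. Each extract was hybridised on 2 arrays, with the treated RNA in Cy3 on the first and in Cy5 on the other, so that 4 combination extracts (replicates 2, 4, 5 and 6) faced 4 pepper extracts (replicates 1 to 4). No measured value entered the choice of arrays.

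All flies were whole adult females of the wild-type strain Oregon-R, aged 4 to 10 days, kept at 60% relative humidity under a daily cycle of 16 h light and 8 h dark. The pepper group received an ethyl acetate extract of Piper nigrum seed at 0.2 mg/mL. The combination group received the same kind of extract at 0.1 mg/mL with pyrethrin at 0.004 mg/mL, a mixture that the labels call synergistic. The control flies received 99% ethanol, which also carried both treatments, and all solutions were applied as a mist of 2 mL. RNA was taken after 6 h from pools of about 240 flies, and 80 µg of total RNA was labelled directly for each channel. The dose of pepper extract and the presence of pyrethrin both differ between the groups, so that neither can be told apart from the other in the difference reported here, and no interaction was tested. In whole flies, fewer cells of a type and less RNA per cell cannot be told apart.

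Pyrethrins are plant insecticides that hold the voltage-gated sodium channels of nerve cells open. Amides of pepper seed, such as piperine, are known to block cytochrome P450 enzymes, which insects use to break down pyrethrins and many other foreign compounds, and this is the textbook basis for mixing the agents. Insects exposed to foreign compounds often raise transcripts of P450 enzymes, glutathione S-transferases and UDP-glycosyltransferases.

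Values are log2 ratios over ethanol, averaged over the 2 arrays of an extract. A value of 1 would be a doubling. The comparison is given as combination minus pepper extract, so that a positive difference means a higher ratio after the combination. The labels do not say which channel is the numerator of the deposited ratio. Treated over control is the likely reading: after the mean of each treatment and dye orientation was removed, the 2 arrays of an extract correlated above 0 in 8 of 8 extracts (0.0246 to 0.439). Without that step the correlation was below 0 in 6 of the 8. If the ratios instead run Cy5 over Cy3, 50 of the 72 named genes turn sign, and if all are inverted, every difference does.

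No gene differed between the combination and the pepper extract past the threshold. Of 11529 tested features, 2169 with a gene symbol, 0 passed a Benjamini-Hochberg adjusted p of 0.05 in limma (0% of those tested), and the smallest adjusted p was 0.96. The 9360 other tested features are single spots, so that duplicate spots among them are counted separately, while spots of 1 symbol are averaged. Shares of all features therefore mix these kinds. An unadjusted p under 0.05 was found for 536 features, 4.65% of all, with 233 higher and 303 lower after the combination. Among genes with a symbol the same threshold held for 48 of 2169 (2.21%), 24 higher (1.11%) and 24 lower (1.11%) after the combination. Read as Cy5 over Cy3, the values give 177 features past the adjusted threshold (1.54%), 36 of them higher and 141 lower. The median difference was 0.01 over all features and its range ran from -0.93 to 1.41.

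The size of difference that these extracts can bound is modest. The 95% interval of a difference reached a median of 0.37 to either side, and for 2131 of the 2169 genes with a symbol (98.2%) it lay wholly within a doubling or a halving, that is between -1 and 1. For 1307 of them (60.3%) it lay between -0.5 and 0.5. A p that misses the threshold does not show that the treatments act alike. A difference of more than 1 is outside the interval for nearly all named genes of the array.

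The groups of extracts failed to overlap for 432 features (3.75%), with 199 higher (1.73%) and 233 lower (2.02%) after the combination, and 77 of the 432 carried a symbol (3.55% of those). For 43 features (0.373%) every combination extract was above ethanol and every pepper extract below it, and for 63 (0.546%) the opposite held. Features above ethanol in all 8 extracts numbered 87 (0.755%) and those below in all 8 numbered 104 (0.902%).

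Each treatment alone also had 0 features past an adjusted p of 0.05 against ethanol in limma (0% in both). An unadjusted p under 0.05 was found for 384 features (3.33%) after the pepper extract and for 1001 (8.68%) after the combination. These counts come from separate tests, and their difference was not tested. They also turn with the reading: as Cy5 over Cy3, 2200 features passed the adjusted threshold for the pepper extract and 1902 for the combination. The pepper extract had 178 on the Cy3 arrays alone and 237 on the Cy5 arrays alone.

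Read as treated over control, extracts of the same treatment showed no greater likeness than extracts of different treatments. Over the 11529 features, the 12 pairs within a treatment correlated at a mean of 0.0237 and the 16 pairs between treatments at a mean of 0.0354. The difference of -0.0117 had an exact two-sided permutation p of 0.971 over all 35 ways to split 8 extracts into groups of 4, where the smallest possible p is 0.0286. Read as Cy5 over Cy3, the difference was 0.162 with that smallest p of 0.0286 (exact), so both its direction and its call turn with the reading. Pepper extracts 1 and 3 correlated with each other at 0.42 and with combination extract 4 at 0.43 and 0.42. The same pepper extracts correlated with combination extract 6 at -0.38 and -0.42.

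**Figure D1:**
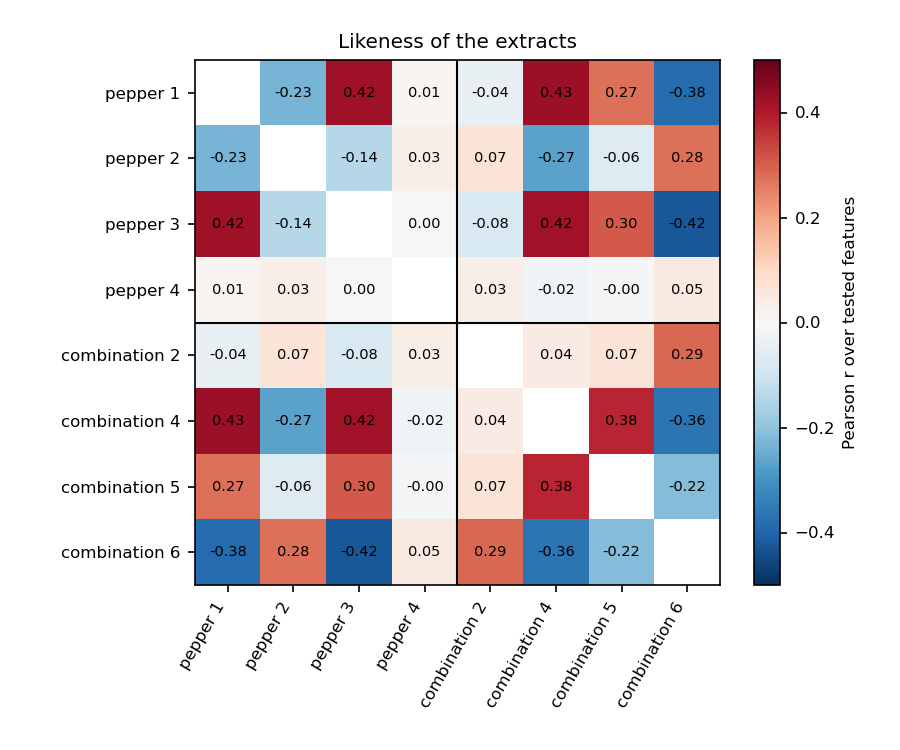
Pearson correlation of each pair of extracts over the tested features, with log2 ratios over ethanol averaged over the 2 arrays of an extract. The black lines part pepper from combination extracts. Red and blue cells stand inside and outside the blocks of a treatment: pepper extract 1 correlates at 0.42 with pepper extract 3 and at 0.43 with combination extract 4.

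The leading axis of variation between extracts ran across both treatments and held 45.7% of the variance of 10116 features measured in all 8. Combination extract 6 lay at one end (34.1) and combination extract 4 at the other (-27.4). Pepper extracts 1 and 3 lay at -14.8 and -13.2, pepper extract 2 at 14.4 and pepper extract 4 at 5.65. The 4 combination extracts therefore span a wider range than the 4 pepper extracts, and the ends of the axis are both held by the combination. Without combination extracts 4 and 6 together, 0 features passed and 472 had an unadjusted p under 0.05.

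For replicates 3 and 4 of the pepper extract, the array with treated RNA in Cy5 carries a title that refers to a different study (2 arrays), and their group was taken from the source names. The array numbers in the titles run from 177 to 184 for the pepper extract and from 224 to 243 for the combination, so that a difference between series of hybridisations and a difference between treatments cannot be told apart. The arrays held 13953 to 16853 values each, and neighbouring duplicate spots correlated at 0.172 to 0.728 per array. The number of arrays limits the precision. The source names give each treatment its own ethanol control extracts, while the titles number them EtOH_1 to EtOH_4 for both, and whether any were shared could not be settled. Extracts of the pepper and combination groups with the same control number (1 to 4) deviated from their group means with correlations of -0.397, 0.149, 0.223 and -0.207. The part of shared controls in the likeness of extracts, or in the counts above or below ethanol in all 8, was not tested further.

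Read as treated over control, Cyp12d1-p stood above ethanol after both treatments. This mitochondrial cytochrome P450, known to be induced by foreign compounds, was at 0.54, 0.37, 0.29 and 0.37 in pepper extracts 1 to 4. In combination extracts 2, 4, 5 and 6 it stood at 0.44, 0.13, 0.69 and 0.68. All 8 extract means were above ethanol, as for 0.755% of all features, and the groups overlapped. Read as Cy5 over Cy3, the values of the Cy3 arrays below change sign, so that the level over ethanol depends on the reading. Neither treatment passed an adjusted p of 0.05 against ethanol in limma (0.529 for the combination). With treated RNA in Cy3, pepper extracts 1 to 4 stood at 0.95, 0.54, 0.37 and 0.77. In Cy5 they stood at 0.13, 0.21, 0.20 and -0.02. Combination extracts 2, 4, 5 and 6 stood at 0.92, 0.29, 0.69 and 0.78 in Cy3. Their Cy5 values were -0.05, -0.04, 0.69 and 0.58. The difference was 0.09 ± 0.15 (SE, n = 4 pepper and 4 combination extracts), with a 95% interval of -0.25 to 0.43 and a limma adjusted p of 0.984. A difference above 0.43 in favour of the combination lies outside the interval.

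The other measured detoxification genes numbered few, and the intervals of their differences include 0. For each list, here and below, the 2 members with the smallest p were singled out, a choice that favours large differences. The list of cytochrome P450 enzymes had 4 measured members, 2 higher and 2 lower after the combination, with a median of 0.04. Cyp4g15, a P450 of the family that makes cuticular hydrocarbons, differed by 0.10 ± 0.15 (SE), with combination extract 6 at 0.56 and the other combination extracts between 0.04 and 0.12. The glutathione S-transferases had 3 of 3 members higher after the combination with a median of 0.12, which was 0.01 without combination replicate 6 and 0.25 without combination replicate 4. GstZ2 stood at a mean of -0.17 after the pepper extract (n = 3) and 0.15 after the combination (n = 4), a difference of 0.31 ± 0.18 (SE; 95% interval -0.09 to 0.71). GstE2, an epsilon-class transferase, differed by 0.12 ± 0.20 (SE). The UDP-glycosyltransferases had 2 of 5 higher and a median of -0.06, with Ugt35A1 at -0.11 and Ugt35D1 at 0.13. The antioxidant enzymes had 2 of 4 higher and a median of 0.02, with the mitochondrial peroxidase Prx3 at 0.14 and the mitochondrial superoxide dismutase Sod2 at -0.13. None of these 16 genes had an unadjusted p under 0.05, against 4.65% of all features and 2.21% of genes with a symbol.

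The named genes with the smallest p-values, 12 in each direction, all had a limma adjusted p of 0.96. They are given as the leading edge of a comparison that called nothing, and their differences ran from 0.33 to 0.73 in size, or 1.26-fold to 1.66-fold. In 20 of the 24 the extract groups did not overlap, against 3.55% of all genes with a symbol, a count that follows from choosing the genes by p. For 20 of the 24, the treatment means lay on opposite sides of ethanol, which held for 43.1% of all genes with a symbol, and choosing genes by the p of the difference favours it. In each of the 24 genes the differences of both spots had the same sign. Choosing genes by the p of the mean of these spots favours that too.

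Genes that stood lower after the combination included the smallest p among those with a symbol. SdhCL, related to the membrane subunit C of succinate dehydrogenase, stood at 0.81, 0.40 and 0.34 in pepper extracts 1, 2 and 4 and was not measured on both arrays of pepper extract 3. In combination extracts 2, 4, 5 and 6 it stood at -0.15, -0.19, -0.08 and -0.44. Every pepper value was above ethanol and every combination value below it. The difference was -0.73 ± 0.17 (SE, n = 3 and 4; 95% interval -1.10 to -0.36), with a limma adjusted p of 0.96. It was -0.44 on the arrays with treated RNA in Cy3 and -1.09 on those with treated RNA in Cy5, and in the latter arrays alone it had a limma adjusted p of 0.0412, against 0.167 to 1 in the other settings tried. Leaving out any 1 extract gave -0.82 to -0.59. Taken singly, 1 spot had both arrays in 2 pepper and 3 combination extracts, with a difference of -0.86. The other spot had both in 1 pepper and 4 combination extracts, with a difference of -0.92.

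Orai, the channel of the plasma membrane that lets calcium in when the internal stores are empty, stood at 0.20, 0.34, 0.39 and -0.09 after the pepper extract. After the combination it stood at -0.20, -0.27, -0.41 and -0.38. All 4 combination extracts were below the lowest pepper extract. The difference was -0.53 ± 0.14 (SE, n = 4 and 4; 95% interval -0.84 to -0.21; limma adjusted p = 0.96). It was -0.22 in the Cy3 orientation and -0.83 in the Cy5 orientation, and -0.63 to -0.47 without any 1 extract.

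RyR, the ryanodine receptor that releases calcium from the endoplasmic reticulum, stood at 0.42, 1.04 and 0.02 in pepper extracts 2, 3 and 4 and at -0.01, 0.27, 0.01 and -0.05 after the combination. The groups overlapped, and the difference of -0.44 ± 0.22 (SE) became -0.17 without pepper replicate 3. The list of calcium store release and entry had 3 of 4 members lower and a median of -0.26, the lowest of the 30 lists. That median was -0.12 without pepper replicate 3 and -0.04 on the Cy3 arrays alone.

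Lamp1, a glycoprotein of the lysosomal membrane, stood at 0.77, 0.28, 0.41 and -0.01 after the pepper extract and at -0.45, -0.05, -0.15 and -0.18 after the combination. Its difference of -0.57 ± 0.18 (SE) was -1.32 on the Cy3 arrays and 0.18 on the Cy5 arrays, so that it rests on a single orientation. Pi4KIIIalpha, the kinase that makes phosphatidylinositol 4-phosphate at the plasma membrane, stood at 0.43, 0.43, 0.64 and 0.08 after the pepper extract and at 0.14, -0.04, -0.06 and 0.00 after the combination. The highest combination value lay above the lowest pepper value. The difference was -0.39 ± 0.15 (SE), with -0.31 and -0.46 in the Cy3 and Cy5 orientations. Over the list of phosphoinositide kinases and phosphatases 4 of 9 members were higher, 5 lower, and the median was -0.13. The median was 0.06 on the Cy3 arrays and 0.02 on the Cy5 arrays, so that its sign is not that of either orientation alone. rdgB, a lipid transfer protein of photoreceptors, differed by -0.26 ± 0.20 (SE).

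Genes that serve the mitochondrion, or are related to such genes, were also among the lower ones. bsf, a mitochondrial RNA-binding protein, stood at 0.09, -0.17, 0.09 and -0.07 after the pepper extract and at -0.61, -0.79, -0.14 and -0.46 after the combination. Combination extract 5 lay inside the pepper range and the other 3 below it, for a difference of -0.49 ± 0.16 (SE), with -0.54 and -0.44 in the Cy3 and Cy5 orientations. ATPsynGL, related to subunit G of the ATP synthase, stood at a mean of 0.05 (SD 0.12, n = 4) after the pepper extract and -0.31 (SD 0.22, n = 4) after the combination. The oxidative phosphorylation list holds genes of respiratory subunits and genes only related to these. Of its 10 measured members 8 were lower and 2 higher. Their median was -0.07 (-0.26 without combination replicate 6). SdhCL and ATPsynGL, both of the related kind, were the 2 with an unadjusted p under 0.05. How far such related genes are expressed in females was not tested. That threshold held on the lower side for 2.63% of all features and 1.11% of genes with a symbol. The other members were UQCR-11L at -0.34, ND-51 at -0.14, SdhBL at -0.13, COX6AL and ND-13A at -0.01, ND-B8 at -0.0014, COX7C at 0.0054 and COX7AL at 0.05. This list was not even across the combination extracts: its median over ethanol was -0.11, -0.38, -0.24 and 0.07 in extracts 2, 4, 5 and 6, against -0.12, 0.16, -0.04 and 0.09 in the pepper extracts. The order of the combination extracts 4 and 6 here is that of the leading axis. With that axis as a covariate, SdhCL differed by -0.76 (limma adjusted p = 0.351). The part of the axis in the median of this list was not tested.

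For the nucleolus and ribosome assembly, the gene with the smallest p was lower after the combination. Nop60B, the pseudouridine synthase of ribosomal RNA, stood at -0.07, -0.27, -0.03 and 0.01 after the pepper extract and at -0.53, -0.54, -0.35 and -0.25 after the combination. The groups overlapped by a narrow margin, and the difference of -0.33 ± 0.13 (SE) was -0.69 on the Cy3 arrays and 0.03 on the Cy5 arrays. Nap1, a histone chaperone that assembles nucleosomes, differed by -0.30 ± 0.15 (SE). The list had 4 of 7 members lower and a median of -0.18. That median was -0.23 on the Cy3 arrays and 0.03 on the Cy5 arrays. The cytosolic ribosomal proteins had 3 of 6 lower and a median of -0.03, with RpS12 at 0.34 ± 0.16 (SE, n = 4 and 3) and RpS15Ab at -0.31 ± 0.19 (SE). The mitochondrial ribosome and RNA genes, among them bsf and mRpL13 (-0.22 ± 0.21 SE), had 2 of 4 lower and a median of -0.03. Their median was -0.46 on the Cy3 arrays and 0.21 on the Cy5 arrays.

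The remaining genes of the lower set were of other kinds. Hcf, a chromatin co-regulator, stood at 0.27, 0.06, 0.23 and 0.08 after the pepper extract and at -0.15, -0.16, -0.03 and -0.36 after the combination. The groups lay on opposite sides of ethanol, with a difference of -0.33 ± 0.13 (SE) that was -0.31 and -0.36 in the Cy3 and Cy5 orientations. ChLD3, a chitin deacetylase-like gene, differed by -0.37 ± 0.13 (SE), with -0.84 on the Cy3 arrays and 0.11 on the Cy5 arrays. CG12081, CG11379 and CG18858 differed by -0.36, -0.38 and -0.52, the last with opposite signs in the orientations. CG31294 was below ethanol in all 7 extracts with a value, at a mean of -0.10 after the pepper extract (n = 3) and -0.50 after the combination (n = 4).

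**Figure D2:**
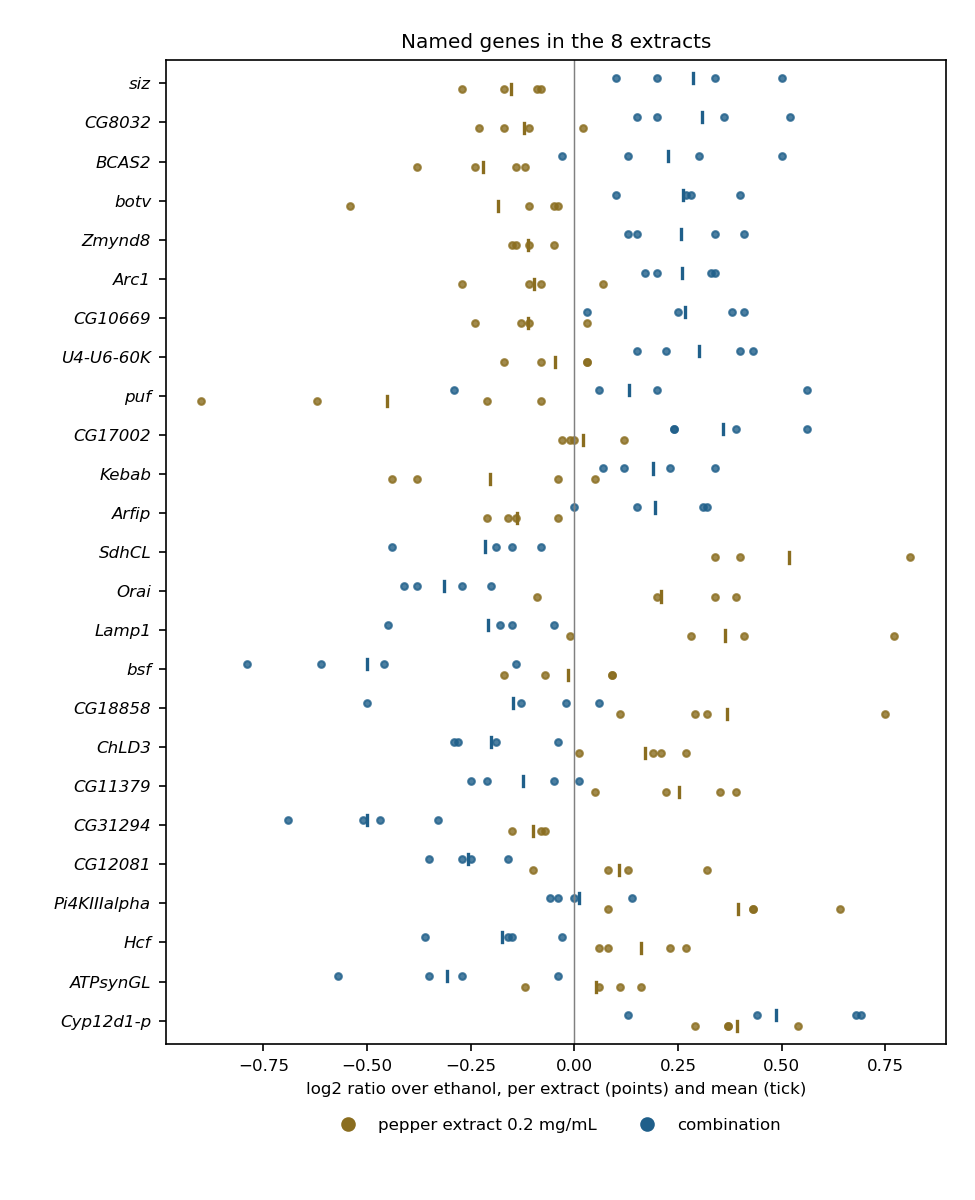
Log2 ratio over ethanol of the 24 named genes and Cyp12d1-p in each extract (points) with the mean of each treatment (ticks), pepper extract in brown and combination in blue. The upper 12 genes sit higher after the combination and the next 12 lower, with differences of 0.33 to 0.73 in size, while the 8 values of Cyp12d1-p lie between 0.13 and 0.69 with both treatments mixed.

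On the higher side, siz had the smallest p among genes with a symbol. This exchange factor, which loads Arf GTPases with GTP, stood at -0.08, -0.17, -0.09 and -0.27 after the pepper extract. After the combination it stood at 0.20, 0.50, 0.10 and 0.34. The groups lay on opposite sides of ethanol in all 8 extracts. The difference was 0.44 ± 0.13 (SE, n = 4 and 4; 95% interval 0.14 to 0.73; limma adjusted p = 0.96), with 0.75 on the Cy3 arrays and 0.13 on the Cy5 arrays. Arfip, which binds GTPases of the Arf family, differed by 0.33 ± 0.13 (SE), with 0.38 and 0.28 in the Cy3 and Cy5 orientations. Of 21 measured genes of vesicle trafficking 15 were higher and 6 lower, with a median of 0.06. Among them siz and Arfip were the 2 with an unadjusted p under 0.05. That threshold held on the higher side for 2.02% of all features and 1.11% of genes with a symbol. The median of this list was below ethanol in all 4 pepper extracts (-0.04 to -0.02) and above it in all 4 combination extracts (0.01 to 0.10), a gap close to 0 throughout.

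Splicing factors were the other group with 2 named members on this side, BCAS2 and U4-U6-60K. Of the 10 measured, these 2 had an unadjusted p under 0.05 on the higher side. Over all features the share was 2.02%, and over genes with a symbol 1.11%. BCAS2, a spliceosome component, stood at -0.12, -0.14, -0.38 and -0.24 after the pepper extract and at 0.30, 0.13, -0.03 and 0.50 after the combination. The lowest combination value was just above the highest pepper value, and the difference was 0.44 ± 0.15 (SE), with 0.62 and 0.27 in the Cy3 and Cy5 orientations. U4-U6-60K, a protein of the U4/U6 snRNP, stood at -0.08, -0.17, 0.03 and 0.03 after the pepper extract and at 0.43, 0.22, 0.15 and 0.40 after the combination. Its difference of 0.35 ± 0.13 (SE) was 0.65 on the Cy3 arrays and 0.04 on the Cy5 arrays. Of the 10 measured splicing factors 8 were higher and 2 lower, with a median of 0.06, against 52.2% of all features and 51.1% of genes with a symbol higher after the combination.

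Genes that build or carry heparan sulfate, the sugar chain of cell surface proteoglycans, had the highest median of the 30 lists. botv, a glycosyltransferase of these chains, stood at -0.11, -0.04, -0.05 and -0.54 after the pepper extract and at 0.27, 0.40, 0.10 and 0.28 after the combination. Pepper extract 4 lay apart from the other 3, and the difference of 0.45 ± 0.15 (SE) was 0.33 without it. The Cy3 arrays gave 0.86 and the Cy5 arrays 0.03. dlp, a glypican that carries such chains, differed by 0.18 ± 0.13 (SE). Of the 6 measured genes 4 were higher and 2 lower, with a median of 0.15. The lower ones were sotv at -0.18 and trol at -0.05. The list's median over ethanol was -0.05, -0.06, -0.05 and -0.01 in the pepper extracts and 0.20, 0.06, 0.10 and 0.12 in the combination extracts.

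Arc1, whose protein forms capsids that carry RNA between neurons and muscle, stood at -0.08, 0.07, -0.11 and -0.27 after the pepper extract and at 0.33, 0.17, 0.20 and 0.34 after the combination. The groups did not overlap, and the difference was 0.36 ± 0.13 (SE), with 0.40 and 0.32 in the Cy3 and Cy5 orientations. CG8032 stood at -0.23, -0.11, 0.02 and -0.17 after the pepper extract and at 0.36, 0.15, 0.20 and 0.52 after the combination. Its difference of 0.43 ± 0.14 (SE) was 0.48 and 0.38 in the Cy3 and Cy5 orientations. puf, a ubiquitin-specific protease, had the largest difference of the 12, at 0.59 ± 0.22 (SE), and also the widest spread, with pepper extracts between -0.90 and -0.08 and combination extracts between -0.29 and 0.56.

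Zmynd8, known in mammals as a reader of chromatin marks, differed by 0.37 ± 0.13 (SE), with 0.75 on the Cy3 arrays and -0.01 on the Cy5 arrays. Kebab, a protein of the kinetochore, differed by 0.39 ± 0.15 (SE), with 0.90 and -0.11. CG10669 differed by 0.38 and CG17002 by 0.34, both with 1 sign in both orientations.

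The difference depended on the dye orientation across the array. The difference computed from the Cy3 arrays and that from the Cy5 arrays correlated at -0.178 over features, a description only, since the arrays share extracts and spots. They had the same sign for 5391 of 11529 features (46.8%). Among the 24 named genes 19 had the same sign in both, which choosing them by the p of the mean of both orientations favours, and the 5 that did not were Zmynd8, Kebab, Lamp1, CG18858 and ChLD3. Taken alone, the Cy3 arrays gave 2 features past a limma adjusted p of 0.05 and the Cy5 arrays 59.

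**Figure D3:**
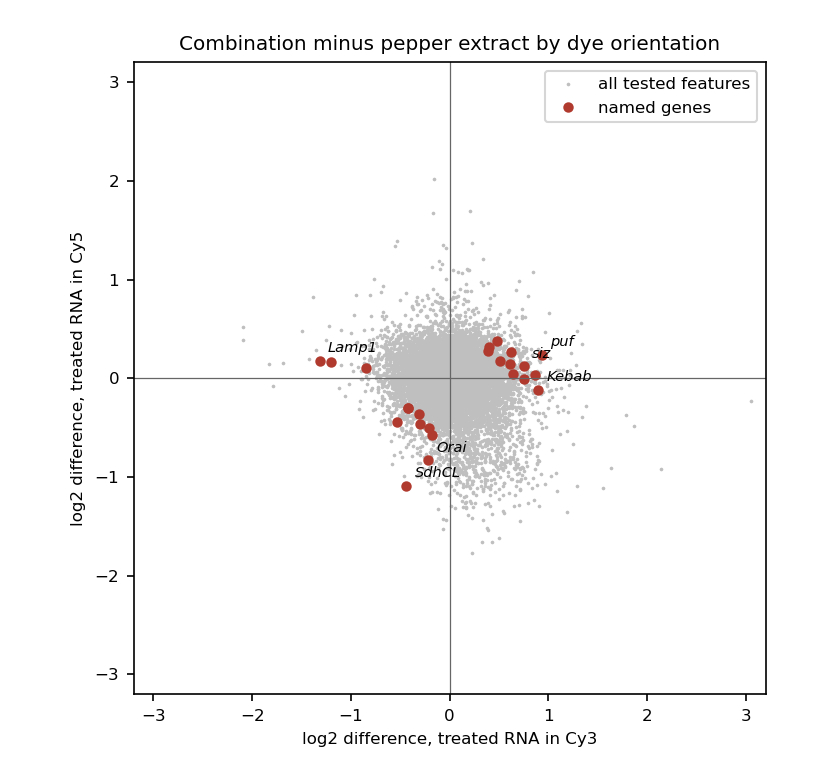
Difference between combination and pepper extract from the arrays with treated RNA in Cy3 (horizontal axis) and in Cy5 (vertical axis), both on the log2 scale, for all tested features (grey) and the 24 named genes (red). The features show no rising diagonal (correlation -0.178), SdhCL and Orai are negative on both axes, and Lamp1 is at -1.32 on the Cy3 arrays and 0.18 on the Cy5 arrays.

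Genes of nerve function, the system on which pyrethrins act, were spread around 0. Of 11 measured voltage-gated channels and related genes 4 were higher and 7 lower, with a median of -0.03. Ih, a channel opened by hyperpolarisation, stood at -0.14, -0.24, 0.02 and -0.19 after the pepper extract and at 0.27, 0.32, 0.06 and 0.10 after the combination. The groups did not overlap, as for 1.73% of all features in this direction, and Ih was chosen as the smallest p of its list. The difference was 0.32 ± 0.13 (SE; limma adjusted p = 0.96). NaCP60E, a relative of the voltage-gated sodium channel that pyrethrins bind, stood at 0.37, 0.03 and 0.11 in pepper extracts 1, 2 and 4 and at -0.20, -0.42, -0.12 and 0.08 after the combination. Its difference was -0.33 ± 0.17 (SE, n = 3 and 4) and the groups overlapped. Neurotransmitter receptors had 4 of 7 higher and a median of 0.01. Nmda1, a subunit of the NMDA receptor, was above ethanol in all 8 extracts, at 0.29, 0.04, 0.08 and 0.10 after the pepper extract and 0.30, 0.34, 0.37 and 0.39 after the combination. All 8 extracts were above ethanol for 0.755% of all features. The Nmda1 difference of 0.22 ± 0.12 (SE) was 0.42 on the Cy3 arrays and 0.03 on the Cy5 arrays. The serotonin receptor 5-HT1B differed by -0.25 ± 0.14 (SE, n = 3 and 4).

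Stress genes were divided. puc, the phosphatase that is both a target and a brake of the JNK pathway, stood at 0.09, 0.08, 0.02 and -0.02 after the pepper extract and at 0.35, 0.21, 0.35 and 0.26 after the combination. Every combination value was above every pepper value, which held for 1.73% of all features. The difference of 0.25 ± 0.12 (SE; 95% interval -0.01 to 0.51) was 0.37 on the Cy3 arrays and 0.13 on the Cy5 arrays. Of its list puc had the smallest p, and choosing it so favours groups that do not overlap. kay, the fly Fos, differed by 0.21 ± 0.18 (SE), and by 0.0556 without combination replicate 6. The list of stress and JNK signalling had 6 of 8 members higher and a median of 0.06. The heat shock proteins and chaperones had 8 of 13 lower and a median of -0.12, which was -0.23 on the Cy3 arrays, 0.10 on the Cy5 arrays and 0.01 without combination replicate 6. Hsp60C, a mitochondrial chaperonin, stood at -0.03, 0.03, 0.34 and -0.05 after the pepper extract and at -0.16, -0.16, -0.17 and -0.20 after the combination, a difference of -0.25 ± 0.13 (SE). DnaJ-H, a co-chaperone, differed by -0.74 on the Cy3 arrays and 0.42 on the Cy5 arrays.

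Of 14 proteasome genes 9 were lower and 5 higher, with a median of -0.04. Prosalpha4T2, a testis form of a core subunit, differed by -0.38 ± 0.17 (SE), and Rpn3, of the regulatory particle, by -0.29 ± 0.15 (SE) with opposite signs in the orientations. Genes of glycoprotein folding and translocation into the endoplasmic reticulum had 5 of 8 higher and a median of 0.04. Srp68, of the signal recognition particle, differed by 0.10 ± 0.16 (SE). Pdi, a disulfide isomerase, ran from -0.31 to 1.88 among the pepper extracts and from -1.14 to 1.46 among the combination extracts, the widest spread of the 72 named genes, and differed by -0.31 ± 0.57 (SE).

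Chitin and cuticle genes had 7 of 17 higher and a median of -0.01, with the chitinase Cht7 at 0.25 ± 0.19 (SE). Glycolysis, trehalose and glycerol phosphate genes had 2 of 5 higher and a median of 0.00, with the trehalose synthase Tps1 at -0.37 ± 0.32 (SE; -0.10 without combination replicate 4 and -0.62 without combination replicate 6) and the trehalase Treh at 0.12 ± 0.16 (SE). Lipid metabolism had 4 of 8 higher and a median of 0.00, with CG5966 at 0.48 ± 0.26 (SE; 0.19 without combination replicate 5, the one at 1.36), and the acyl-CoA synthetase Acsl at -0.20 ± 0.17 (SE). Circadian clock genes had 3 of 6 higher and a median of 0.01, with the transcription factor gene Pdp1 at 0.18 ± 0.13 (SE) and slmb, which marks clock proteins for breakdown, at -0.24 ± 0.14 (SE).

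**Figure D4:**
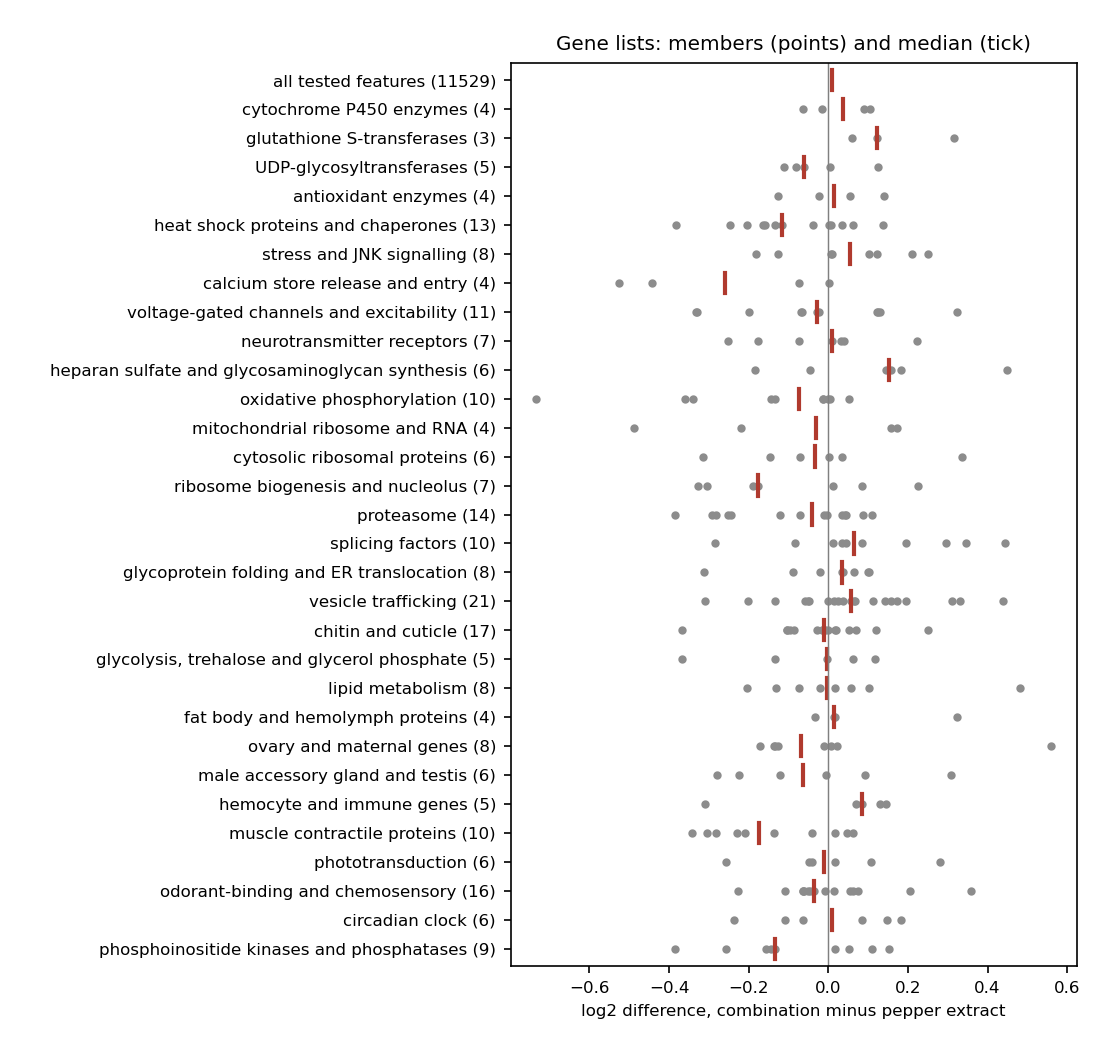
Difference between combination and pepper extract on the log2 scale for the measured members of 30 gene lists (points) with the list median (red tick) and the number measured in parentheses. The top row gives the median of all tested features, 0.01, and the list medians run from -0.26 for calcium store release and entry to 0.15 for heparan sulfate synthesis.

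Markers of the tissues that a whole fly holds bear on how far the makeup of the pools moved with treatment. Fat body and hemolymph proteins had 3 of 4 higher and a median of 0.01, with regucalcin at 0.32 ± 0.17 (SE) and Fbp2 at -0.03 ± 0.15 (SE). Ovary and maternal genes had 5 of 8 lower and a median of -0.07, where plu at 0.56 ± 0.31 (SE, n = 3 and 4) became 0.08 without pepper replicate 4 and mei-9, a DNA repair gene of meiosis, stood at -0.17 ± 0.19 (SE). Male accessory gland and testis genes, which should be scarce in females, had 4 of 6 lower and a median of -0.06. The seminal fluid gene Acp53C14a, with the smallest p of this list, differed by -0.28 ± 0.14 (SE). It had 4 of 4 pepper extracts above ethanol and 4 of 4 combination extracts below it, as did 0.546% of all features. Choosing the gene by p favours such a split. The testis gene ocn differed by 0.31 ± 0.26 (SE). Hemocyte and immune genes had 4 of 5 higher and a median of 0.08, with peroxidasin, Pxn, at 0.14 ± 0.14 (SE) and lectin-37Da at -0.31 ± 0.18 (SE). The muscle contractile proteins had 7 of 10 lower and a median of -0.17, which was -0.19 on the Cy3 arrays, 0.08 on the Cy5 arrays and -0.04 without combination replicate 4. Tm2, a muscle tropomyosin, differed by -0.34 ± 0.24 (SE), with -1.22 and 0.53 in these orientations, and Zasp66, of the muscle Z-disc, by -0.23 ± 0.20 (SE). Phototransduction genes had 3 of 6 higher and a median of -0.01, with inaE at 0.28 ± 0.17 (SE). The odorant-binding and chemosensory genes had 6 of 16 higher and a median of -0.04, with Obp56d at 0.36 ± 0.30 (SE) and Obp59a at -0.23 ± 0.21 (SE). The part of these markers in any difference above was not tested.

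Across the 30 lists, 242 measured genes gave 0 past an adjusted p of 0.05 in limma over all features, and the list medians ran from -0.26 to 0.15. Leaving out 1 extract at a time gave medians of both signs for 17 of the 30 lists. Of the 47 genes named from the lists, 33 moved by more than 1.5 times, or changed sign, without some extract. The combination extracts themselves differed widely in 2 lists. The mitochondrial ribosome and RNA genes had a median of -0.61 in combination extract 4 and 0.24 in combination extract 6. The glutathione S-transferases had a median of 0.55 in combination extract 6, while the other 3 combination extracts lay between -0.12 and 0.08.

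**Figure D5:**
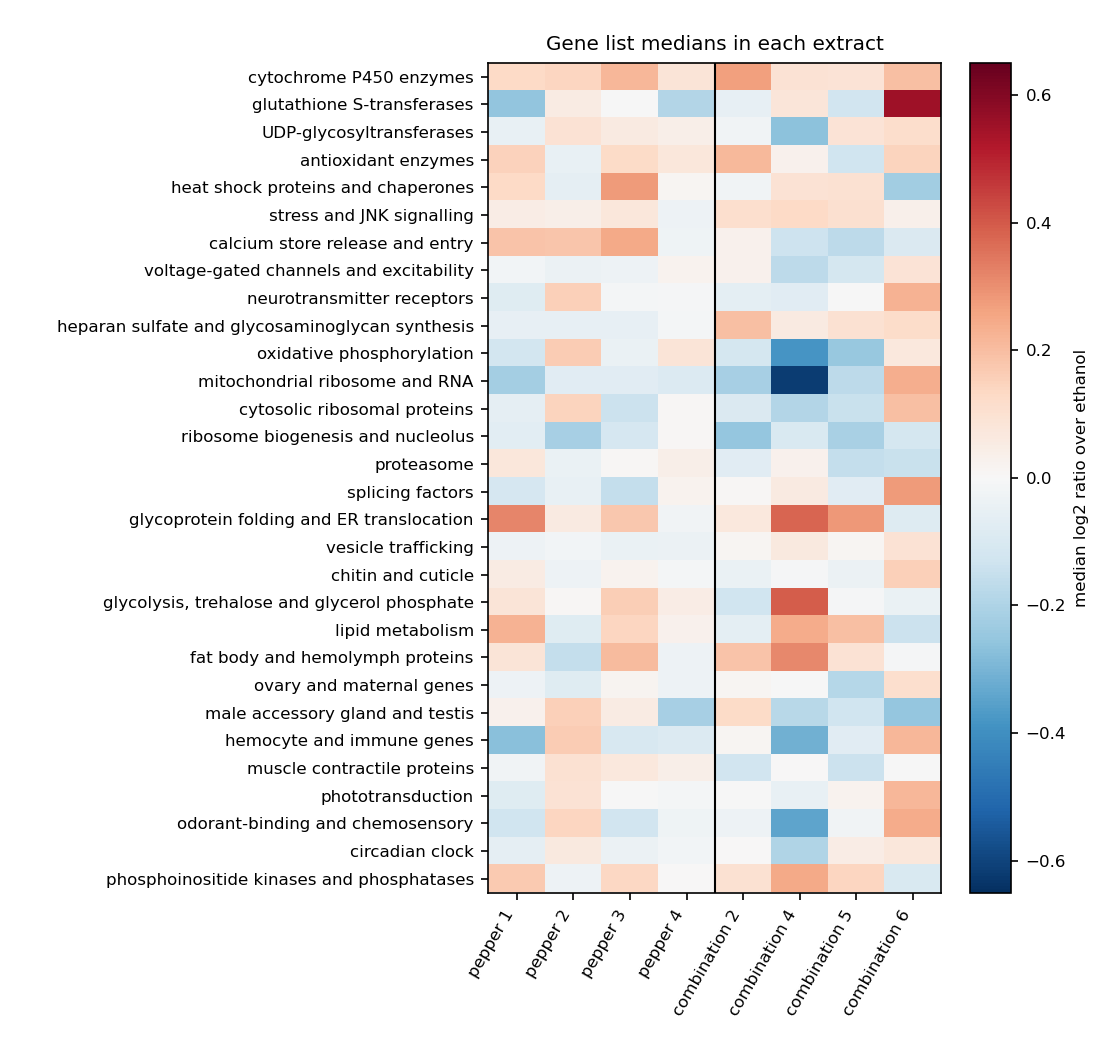
Median log2 ratio over ethanol of each gene list in each extract (colour scale), with pepper extracts left and combination extracts right of the black line. Combination extracts 4 and 6 show opposite colours for several lists, such as the mitochondrial ribosome genes at -0.61 and 0.24, and the heparan sulfate list is below ethanol in the 4 pepper extracts and above it in the 4 combination extracts.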

How the data were processed

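The deposited values are log2 ratios, 1 per spot and array; base 2 is read from their range, which reaches 14.29, and the authors' normalization is not given in the sources used here. Of 16896 spots, 5666 carried 1 gene symbol (2377 symbols, all matched to RefSeq genes), 152 several and 11078 none. Each array's median was subtracted, spots of 1 symbol were averaged, and all other spots were kept singly. Neighbouring spots shared their symbol in 2833 of 2833 annotated pairs. An extract was kept for a feature where both of its arrays had a value (6.21% of values were missing). Features with at least 3 of 4 extracts per treatment were tested with limma 3.58.1 (R 4.3.3, statmod 1.5.0), two-sided, with Benjamini-Hochberg adjustment at 0.05 over all features.

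The comparison and the gene lists were chosen with earlier results of these data known, while the arrays within it follow from their labels alone. Named genes are the 12 with a symbol and the smallest p in each direction, used where fewer than 5 genes pass, and Cyp12d1-p. To these were added the 2 members of each list with the smallest p, whatever their direction. They were chosen on the differences reported here and do not stand for their lists. Replicates are separate RNA pools by label; the labels do not say whether they came from separate rearings, and p-values then measure only the spread between these pools. Same-numbered extracts did not deviate together (correlations -0.397 to 0.223), so the numbers were not taken as pairs.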

Additional observations from a re-analysis of the deposited data

Results flagged for a closer look

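In 6 of 134 groups of 4 extracts checked among the named genes (4.48%), a single extract lay far from the other 3 by Dixon's criterion, where chance gives about 1 in 20. For botv, pepper extract 4 stood at -0.54 with its nearest neighbour at -0.11, and the pepper mean of -0.19 was -0.07 without it. For Cyp4g15, combination extract 6 stood at 0.56 against 0.12 for the next, and the mean of 0.19 was 0.07 without it. For Sod2, pepper extract 1 stood at 0.42 against 0.11, and the mean of 0.16 was 0.07 without it. For dlp, pepper extract 2 stood at 0.19 while the nearest was at -0.08, and the mean of -0.02 was -0.09 without it. For plu, combination extract 5 stood at -0.17 with the nearest at 0.04, and the mean of 0 was 0.06 without it. For Tm2, combination extract 4 stood at 0.46 with the nearest at -0.01, and the mean of 0.07 was -0.06 without it.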

How the results depend on the processing

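Feature counts were taken under 26 settings, 24 of them planned, and the 72 named genes gave 1776 values under 25 of these (not with each spot on its own), of which 1689 kept the sign and side of the threshold. The number past an adjusted p of 0.05 stayed at 0 without any 1 extract, in the fit of 16 arrays with the extract as a random block, and under each other scaling and filter, but was 177 with the values read as Cy5 over Cy3 (by channel), 2 on Cy3 arrays alone and 59 on Cy5 arrays alone. The number at an unadjusted p under 0.05 was 1909 by channel, 997 and 1066 on the Cy3 and Cy5 arrays, 269 without the 2 extracts with foreign array titles, 1224 with the leading axis as a covariate (chosen after seeing the data), and 398 to 704 without any 1 extract. With the replicate block the control extract number gave 345 of 10116 complete features and the treated extract number 489, both with 0 past the adjusted threshold. The pepper extract against ethanol had 2200 past the adjusted threshold by channel, 178 on Cy3 and 237 on Cy5 arrays. The combination had 1902 by channel and 0 to 2 without any 1 extract, the 2 without combination replicate 4. By channel, extracts of a treatment were more alike than others (within minus between 0.162, exact p = 0.0286, the smallest possible). The causes of these shifts were not tested. SdhCL passed on the Cy5 arrays alone (-1.09, limma adjusted p = 0.0412).

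By channel, 50 named genes changed sign, with siz at -0.31, CG8032 at -0.0478, BCAS2 at -0.18, botv at -0.42, Zmynd8 at -0.38, Arc1 at -0.0444, CG10669 at -0.23, U4-U6-60K at -0.30, puf at -0.35, CG17002 at -0.17, Kebab at -0.51, Arfip at -0.0522, Lamp1 at 0.75, bsf at 0.0477, CG18858 at 0.68, ChLD3 at 0.48, CG12081 at 0.0571, ATPsynGL at 0.0636, GstZ2 at -0.0239, Ugt35A1 at 0.0112, Prx3 at -0.0346, Sod2 at 0.29, Hsp60C at 0.0216, DnaJ-H at 0.58, puc at -0.12, kay at -0.16, Ih at -0.13, Nmda1 at -0.20, dlp at -0.0707, mRpL13 at 0.36, RpS12 at -0.0981, RpS15Ab at 0.0952, Nop60B at 0.36, Nap1 at 0.29, Prosalpha4T2 at 0.11, Rpn3 at 0.50, Srp68 at -0.22, Pdi at 0.15, Cht7 at -0.24, Tps1 at 0.46, Treh at -0.0428, CG5966 at -0.24, regucalcin at -0.0396, lectin-37Da at 0.44, Pxn at -0.0874, Tm2 at 0.88, Zasp66 at 0.49, inaE at -0.20, rdgB at 0.24 and Pdp1 at -0.0991. On the Cy3 arrays alone these were GstE2 at -0.18, Ugt35D1 at -0.0096, Fbp2 at 0.0616, mei-9 at 0.36, Obp56d at -0.10, Obp59a at 0.0015 and slmb at 0.0213. On the Cy5 arrays alone they were Zmynd8 at -0.0121, Kebab at -0.11, Lamp1 at 0.18, CG18858 at 0.17, ChLD3 at 0.11, Sod2 at 0.17, DnaJ-H at 0.42, mRpL13 at 0.14, Nop60B at 0.029, Rpn3 at 0.21, Srp68 at -0.12, Tps1 at 0.0949, lectin-37Da at 0.13, Tm2 at 0.53 and Zasp66 at 0.26. Without the extracts with foreign titles they were Fbp2 at 0.0122 and Obp56d at -0.0148, and without combination replicates 4 and 6 together (chosen after seeing the data) Cyp4g15 at -0.0124, Pdi at 0.12, Cht7 at -0.0058 and Pxn at -0.0016. Leaving out any 1 extract, Cyp4g15 ran from -0.019 to 0.16, GstE2 from -0.06 to 0.25, Ugt35D1 from -0.0492 to 0.26, Pdi from -0.69 to 0.18 and Fbp2 from -0.11 to 0.0508. Of 750 list medians, 50 moved by more than the spread between extracts. Signal over background was not used here, so what dim spots limit was not tested.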

Other observations

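Among spots without a gene symbol, the smallest p-values on the higher side belonged to spot 7546, at 0.90 ± 0.16 (SE), and spot 16107, at 0.60 ± 0.13 (SE). On the lower side they belonged to spot 408, at -0.74 ± 0.15 (SE), and spot 6418, at -0.80 ± 0.16 (SE). With limma, the adjusted p of all 4 was 0.96.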
